A study of Canis lupus familiaris with 18 samples.

Results

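The genes described here make cholesterol and its isoprenoid precursors, sense sterol levels and move cholesterol between membranes. Nearly all of them are known targets or regulators of SREBP2, the transcription factor encoded by SREBF2. The list holds 29 genes, and 28 of them have at least 1 probe set whose single annotated gene symbol is the gene's own. IDI1, isopentenyl diphosphate isomerase, has none under its symbol or its gene identifier. For each gene the probe set of highest mean over all arrays was used, and 24 of the 28 passed a filter on low values. That compares with 8650 genes of the whole array that passed it. All 28 gene identifiers carry the same symbol in the RefSeq gene table.

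Expression was measured with Affymetrix canine arrays in fat of 9 female Beagle dogs, 4 years old. The 4 control dogs, numbered 1, 3, 4 and 9, were given enough food to keep the body weight they started with, and the series title calls them lean. The 5 ad libitum dogs, numbered 2, 5, 6, 7 and 8, ate freely and are called obese. Both groups ate Purina Pro Plan Performance Formula, and after 24 weeks subcutaneous and gonadal fat was taken from every dog following a night without food, which gives 18 arrays. Dogs had been put into the feeding groups at random, and the animal number in the labels joins both depots of a dog. The labels mark the subcutaneous arrays, but none of the gonadal arrays, as deposited before with differently computed values. The sources used here do not state whether both depots were hybridised together, and if they were not, depot and array batch cannot be told apart.

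Cells build cholesterol from acetyl-CoA through mevalonate, farnesyl diphosphate, squalene and lanosterol. When sterols in the endoplasmic reticulum are scarce, SCAP carries SREBP2 to the Golgi, where proteases release the part that switches on the genes of the pathway, and when sterols are plentiful INSIG1 and INSIG2 hold SCAP back. Fat cells make little cholesterol compared with liver but store much of it, unesterified, at the surface of their lipid droplet.

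Values are log2 signals, so a difference of 1 log2 unit is a 2-fold difference in signal. Values in subcutaneous (sc) and gonadal fat are listed by dog, in the order 1, 3, 4 and 9 for control dogs and 2, 5, 6, 7 and 8 for ad libitum dogs. The floor of the filter is log2 4, to be reached in at least 4 of 18 arrays. Errors after ± are standard errors of limma's fit unless SD is written, and adjusted p-values are limma's with Benjamini-Hochberg adjustment over 21484 probe sets. A gene is said to rise or fall only where the adjusted p is under 0.05. A probe set's level is not set against that of another gene, because probes differ in their affinity.

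The tissue labels were checked against marker genes. All 10 adipocyte markers were tested, and their mean ranged from 10.94 to 13.24 over the arrays. Markers of steroidogenic and ovarian cells, which use much cholesterol, lay below the floor in all 18 arrays for 8 of the 9 genes annotated, and none of the 9 was tested. In 4 arrays the markers of skeletal muscle or ciliated epithelium stood more than 2 log2 units above the median array. These were the sc arrays of control dogs 3 and 4 and the gonadal arrays of ad libitum dogs 2 and 6. Each array is bulk tissue, in which fewer cells of a type and less RNA per cell cannot be told apart.

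Ad libitum feeding came with higher signals of most genes of the pathway in subcutaneous fat, but a single gene passed the test. CYP51A1, which removes a methyl group from lanosterol and so opens the last section of the pathway, rose 2.74-fold (1.45 ± 0.35 log2 units, adjusted p = 0.0423, 5 dogs against 4). Of the 24 genes tested 20 had a positive difference and 4 a negative one. The median difference was 0.46, beside 0.00 over all genes tested, of which 50.1% were positive. It was 0.23 without dog 2, 0.22 with the 3' minus 5' actin signal, a measure of RNA length, as a covariate, and 0.23 without the 4 arrays named above. The 1 member that rose stands beside 1.97% of all tested genes. At an unadjusted p under 0.05, 7 of the 24 were higher (GGPS1, CYP51A1, MSMO1, SC5D, DHCR7, INSIG1 and INSIG2), beside 14.9% of all genes. DHCR7 passed the filter only through ad libitum arrays, so its place among the 7, and among the 20 positive differences, supports nothing.

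CYP51A1 signals in sc fat of control dogs were 7.23, 7.12, 7.06 and 7.51. Ad libitum dogs had 9.82, 7.80, 8.98, 8.42 and 8.40. All 5 ad libitum arrays lay above all 4 control arrays, with dog 2 highest and dog 5 closest to the controls. Means were 7.23 ± 0.20 (SD, n = 4) and 8.68 ± 0.76 (SD, n = 5). The call was lost when any dog other than dog 5 was left out, with adjusted p from 0.0581 (without dog 6) to 0.116 (without dog 4). Without dog 5 the difference was 1.67 (adjusted p = 0.00996), and without the 4 arrays with markers of those other cells it was 1.31 (adjusted p = 0.208).

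**Figure D1:**
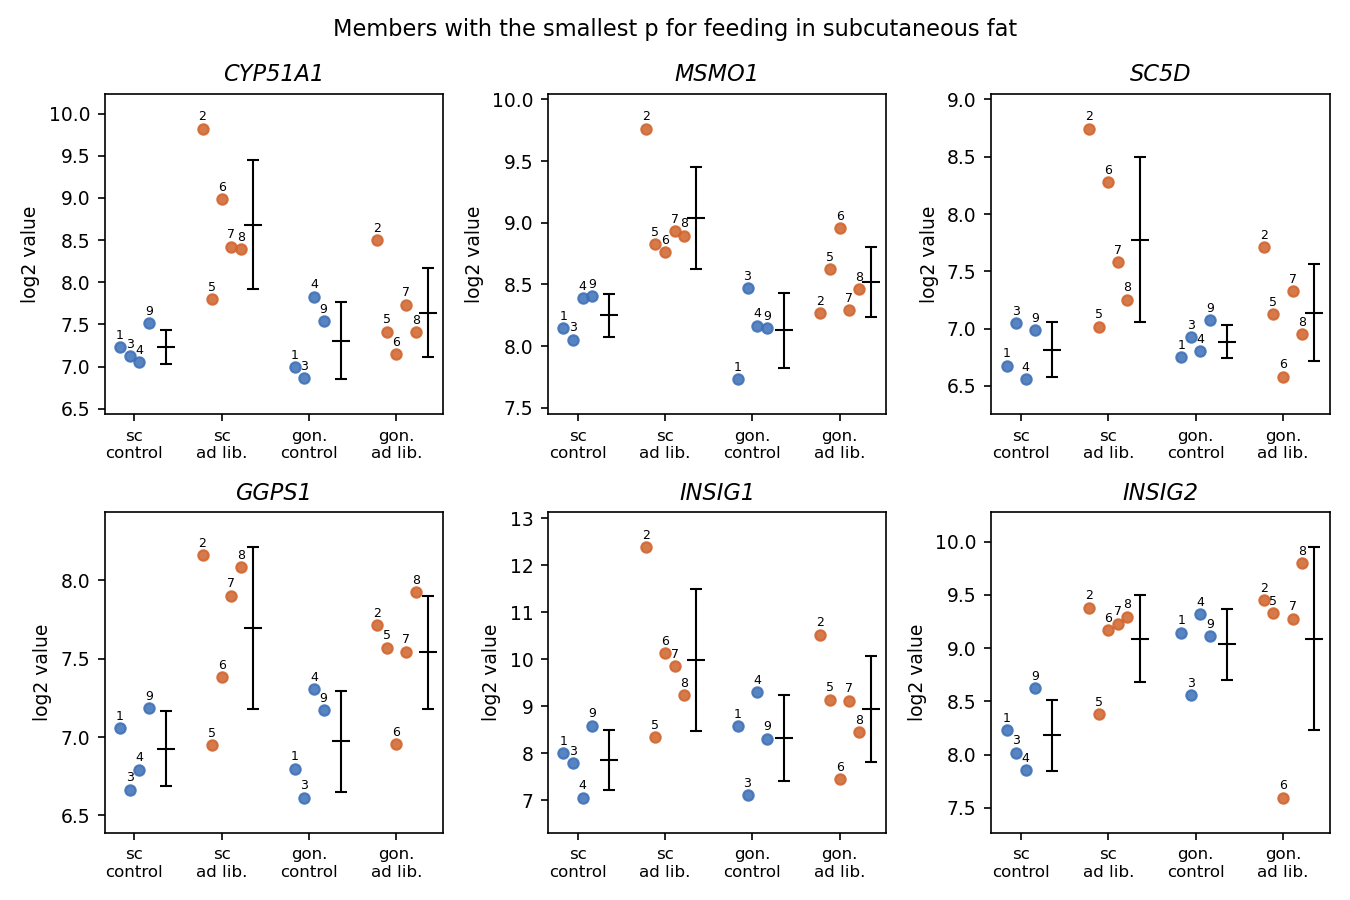
Log2 values of 6 genes in each array, by depot (sc, subcutaneous; gon., gonadal) and feeding group, with the dog number beside each point. The bar to the right of each group is its mean ± SD (n = 4 control, n = 5 ad libitum). In sc fat the ad libitum points of CYP51A1 and MSMO1 lie above all control points, and dog 2 is the highest sc array in all 6 genes.

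MSMO1, which oxidises methyl groups of the sterol ring in the next steps, did not overlap between the feeding groups either. Its sc signals were 8.15, 8.05, 8.39 and 8.41 in control dogs and 9.76, 8.83, 8.76, 8.93 and 8.90 in ad libitum dogs. The difference of 0.79 ± 0.21 missed the threshold (adjusted p = 0.0586). These are 2 genes of 24 with ad libitum dogs above every control dog, beside 6.13% of all genes tested. The second probe set of MSMO1 differed by 0.85 ± 0.21 and passed (adjusted p = 0.0487).

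SC5D, the desaturase close to the end of the pathway, stood at 6.68, 7.05, 6.56 and 6.99 in sc fat of control dogs. With ad libitum feeding it stood at 8.75, 7.02, 8.28, 7.58 and 7.25. Only dog 5 fell within the control range, and the difference was 0.96 ± 0.30 (adjusted p = 0.0871). DHCR7, which carries out a final reduction to cholesterol, read 2.67, 2.70, 3.97 and 2.77 in sc fat of control dogs and 6.38, 2.65, 4.86, 4.70 and 4.26 in ad libitum dogs. Its 6 arrays at or above the floor were all from ad libitum dogs, 4 sc and 2 gonadal, so the filter let it through only by the group where it was high. With the control mean set to the floor its ad libitum mean was at least 1.48-fold higher, and the gene did not pass (adjusted p = 0.178).

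The other members between lanosterol and cholesterol had smaller differences. All 10 genes of this section had a positive feeding difference in sc fat, with a median of 0.54. DHCR7 is 1 of the 10, and its sign supports nothing because of the way it passed the filter. TM7SF2 and LBR can both reduce the same double bond of the sterol ring. TM7SF2 differed by 0.70 ± 0.65 (adjusted p = 0.527) and ranged from 6.42 to 9.87 in sc fat of ad libitum dogs, where dog 2 alone exceeded 7.03. LBR, which is also a receptor of the inner nuclear membrane, kept within 8.42 to 9.05 over the 9 sc arrays, with a difference of 0.20 ± 0.21 (adjusted p = 0.581). NSDHL, the dehydrogenase that acts after MSMO1, differed by 0.39 (adjusted p = 0.435), and the isomerase EBP by 0.16 (adjusted p = 0.708). For HSD17B7, a sterol ketone reductase, and ERG28, a scaffold for these enzymes, the differences were 0.09 and 0.04.

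Upstream, the 3 genes that lead from acetyl-CoA towards mevalonate all had positive sc differences and none passed. HMGCS1, the cytosolic HMG-CoA synthase, read 13.16, 12.48, 13.27 and 13.58 in control dogs and 14.26, 12.65, 14.16, 14.10 and 14.23 in ad libitum dogs. Dogs 2, 6, 7 and 8 lay above every control dog and dog 5 near the bottom of the control range. The difference was 0.76 ± 0.37 (adjusted p = 0.229), and it passed only in the fit without dog 5. Its other probe sets differed by 1.40 and 1.60 (adjusted p = 0.143 and 0.124). ACAT2, the cytosolic thiolase, differed by 0.44 ± 0.43, and AACS, which activates acetoacetate for lipid synthesis, by 0.79 ± 0.69, with sc control arrays from 4.77 to 7.35.

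Among the enzymes from mevalonate to isoprenoids, GGPS1, which makes geranylgeranyl diphosphate for protein prenylation, differed most. It read 7.06, 6.66, 6.79 and 7.19 in sc fat of control dogs and 8.16, 6.95, 7.38, 7.90 and 8.08 in ad libitum dogs. Here too dog 5 alone fell into the control range, and the difference was 0.77 ± 0.25 (adjusted p = 0.0968). The second probe set of GGPS1 gave 0.72 ± 0.23 (adjusted p = 0.0872). With it all ad libitum sc arrays, dog 5 included, lay above all control arrays, beside 6.13% of all genes. MVD, which decarboxylates mevalonate diphosphate, and FDPS, farnesyl diphosphate synthase, differed by 0.48 ± 0.30 and 0.47 ± 0.23 (adjusted p = 0.342 and 0.23). PMVK, phosphomevalonate kinase, went the other way by -0.26 ± 0.20 (adjusted p = 0.436), and all 3 of its probe sets had a negative sc difference.

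At the step to squalene and lanosterol neither gene tested passed for feeding in sc fat. FDFT1, squalene synthase, differed by 0.31 ± 0.29 (adjusted p = 0.531). SQLE, squalene epoxidase, a rate-limiting enzyme of the pathway, read 7.29, 7.24, 7.14 and 6.41 in sc fat of control dogs and 7.72, 7.66, 5.73, 6.73 and 6.66 in ad libitum dogs. The groups overlapped throughout, and the difference was -0.12 ± 0.48 (adjusted p = 0.899). LSS, lanosterol synthase, stayed between 1.93 and 2.26 in all 18 arrays and was not tested.

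INSIG1 had the largest sc feeding difference of the 24 genes in this fit, 2.13 ± 0.70 log2 units or 4.38-fold, and did not pass (adjusted p = 0.0983). Its sc signals were 8.00, 7.79, 7.05 and 8.59 in control dogs and 12.39, 8.34, 10.13, 9.85 and 9.23 in ad libitum dogs. Dog 2 stood 2.26 log2 units above the next array, and dog 5 lay below control dog 9. Without dog 2 the difference was 1.53 (adjusted p = 0.187). A second probe set gave 2.58 ± 0.75 (adjusted p = 0.0732), and with it dog 5 too lay above all control arrays, beside 6.13% of all genes without overlap.

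INSIG2, the related anchor protein, read 8.23, 8.02, 7.85 and 8.63 in sc fat of control dogs and 9.38, 8.38, 9.17, 9.23 and 9.30 in ad libitum dogs. Dog 5 was again the only ad libitum array inside the control range, and the difference was 0.91 ± 0.35 (adjusted p = 0.14), or 0.47 with the actin covariate (adjusted p = 0.611). SCAP, the escort of SREBP2, differed by 0.11 ± 0.19 (adjusted p = 0.763), with sc signals of 8.38, 8.28, 8.21 and 7.91 in control dogs and 8.69, 8.34, 8.25, 8.04 and 8.19 in ad libitum dogs. SREBF2 itself lay between 2.78 and 3.91 in all 18 arrays, below the floor, and was not tested. MVK, mevalonate kinase, reached the floor in 1 array (4.12, gonadal, dog 6), and NPC1L1, the sterol importer of the gut, in 3 gonadal arrays (4.52, 4.48 and 4.74 in dogs 3, 5 and 6). A signal below the floor here is a property of the probe set on these arrays and does not show that the gene is silent.

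The transport genes had small feeding differences in sc fat, whose sign varied between probe sets. STARD4, which carries cholesterol between membranes, differed by -0.37 ± 0.26 (adjusted p = 0.399) with the probe set used here and by 0.23 with the other. NPC1, which exports cholesterol from lysosomes, differed by -0.02 ± 0.19 (adjusted p = 0.954) and, with its other probe set tested, by 0.09 ± 0.19 (adjusted p = 0.793).

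In gonadal fat 0 of the 24 genes passed for feeding, and 0% of all genes did (limma, smallest adjusted p = 1). At an unadjusted p under 0.05 there was 1 member, GGPS1, beside 1.31% of all genes higher. GGPS1 read 6.80, 6.61, 7.30 and 7.17 in gonadal fat of control dogs and 7.71, 7.57, 6.95, 7.55 and 7.92 in ad libitum dogs. Every ad libitum dog other than dog 6 lay above the controls, and the difference was 0.57 ± 0.25. Counting members with no overlap and ad libitum higher gave 0, beside 0.266% of all genes. The median gonadal difference of the 24 genes was 0.08, with 16 positive, DHCR7 among them, and 8 negative.

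CYP51A1 in gonadal fat read 6.99, 6.87, 7.83 and 7.54 in control dogs and 8.50, 7.41, 7.15, 7.73 and 7.41 in ad libitum dogs. The groups overlapped, and the difference was 0.33 ± 0.35 beside the 1.45 of sc fat. MSMO1 read 7.73, 8.47, 8.17 and 8.15 against 8.27, 8.62, 8.95, 8.29 and 8.46 (difference 0.39 ± 0.21). INSIG1 read 8.58, 7.11, 9.30 and 8.31 against 10.53, 9.14, 7.44, 9.12 and 8.45 (difference 0.61 ± 0.70). Dog 2 was the highest gonadal array for CYP51A1 and INSIG1, as it was in sc fat.

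HMGCS1 differed by -0.03 ± 0.37 with feeding in gonadal fat and was not called. It read 13.59, 12.64, 13.98 and 13.79 in control dogs and 13.75, 13.70, 12.50, 13.47 and 13.92 in ad libitum dogs. SQLE differed by 0.45 ± 0.48 there, and its range in ad libitum dogs ran from 5.26 in dog 2 to 8.09 in dog 6. DHCR7 read 2.74, 2.77, 3.40 and 2.66 against 5.33, 2.67, 5.60, 3.21 and 3.27 (difference 1.12 ± 0.66), so only dogs 2 and 6 reached the floor. Without the 4 arrays named above, 2 of which are these, the DHCR7 difference was 0.15.

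The other gonadal differences with the smallest unadjusted p were those of LBR, NPC1 and EBP, at 0.35, 0.25 and 0.25, each with an adjusted p of 1. LBR read 9.10, 8.09, 9.55 and 8.87 in control dogs and 9.31, 9.21, 9.25, 9.31 and 9.20 in ad libitum dogs, all inside the control range. Its difference was 0.08 without dog 3 and 0.57 without dog 4. NPC1 read 8.50, 7.67, 8.17 and 7.77 against 8.09, 8.27, 8.31, 8.50 and 8.23, with overlap and a difference of 0.13 without dog 3. The EBP difference was 0.02 without dog 6 and -0.10 without the 4 arrays.

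**Figure D2:**
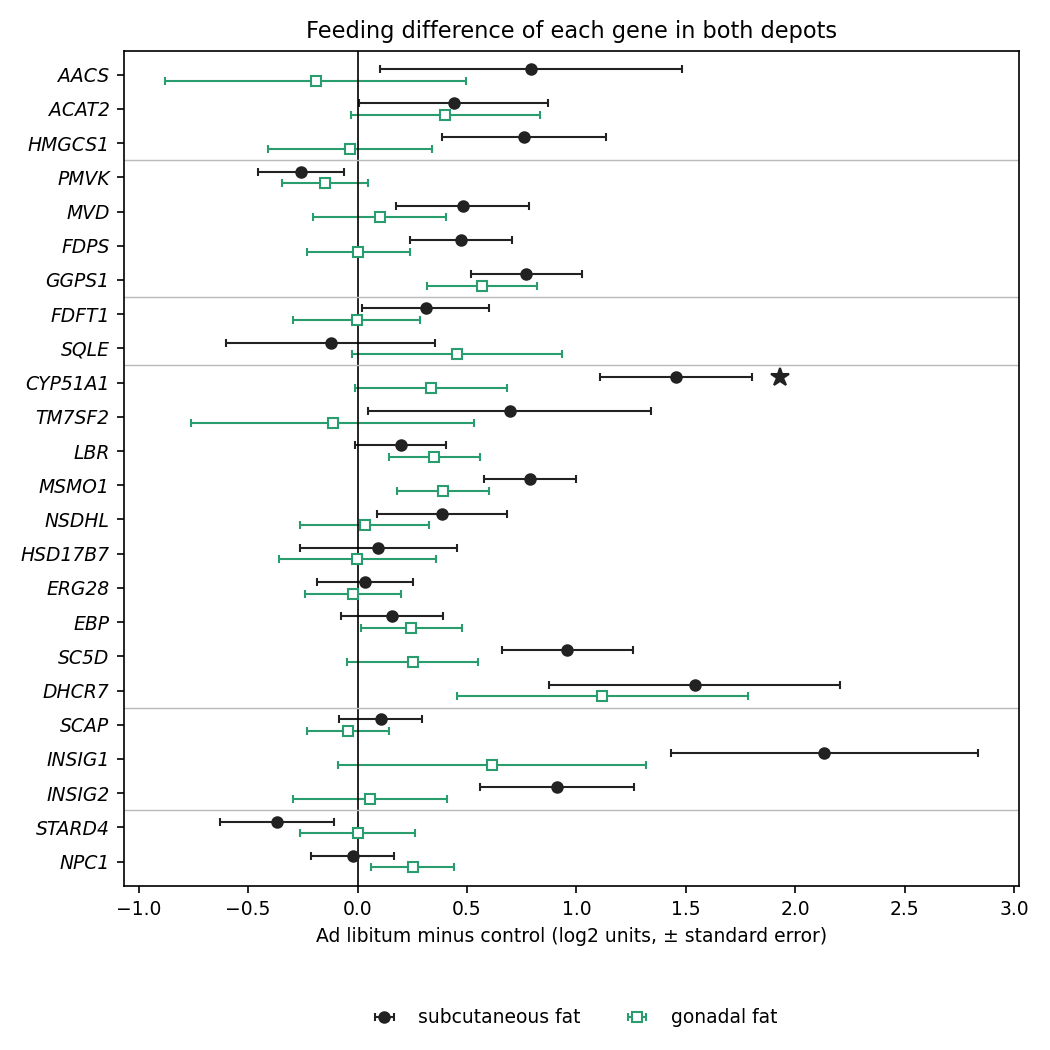
Ad libitum minus control difference (log2 units, ± standard error of limma's fit) of the 24 genes tested, in pathway order, in sc fat (black circles) and gonadal fat (green open squares). The star marks an adjusted p under 0.05. CYP51A1 in sc fat carries the only star, and 20 of 24 black circles lie right of 0.

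Whether the depots responded differently to feeding was tested directly. By that test 0 of the 24 genes passed, and 0% of all genes did (limma, smallest adjusted p = 0.254). CYP51A1 was the 1 member with an unadjusted p under 0.05 and a lower gonadal response, beside 4.3% of all genes. Its gonadal response minus its sc response was -1.12 ± 0.49 (adjusted p = 0.748). INSIG1, INSIG2, HMGCS1, SC5D and FDPS had response differences of -1.52 ± 0.99, -0.85 ± 0.50, -0.79 ± 0.53, -0.71 ± 0.42 and -0.47 ± 0.33. With the actin covariate these 5 were -0.49, -0.27, -0.47, -0.39 and -0.06. SC5D read 6.75, 6.93, 6.80 and 7.07 in gonadal fat of control dogs and 7.71, 7.12, 6.58, 7.33 and 6.95 in ad libitum dogs, with overlap. The feeding responses of the depots were thus not shown to differ for any member.

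Between depots the members differed in direction. In ad libitum dogs MVD was 2.20-fold lower in gonadal than in sc fat (-1.14 ± 0.29 log2 units, adjusted p = 0.0249), and it was the 1 member called, beside 4.75% of all genes called lower. In control dogs 0 members passed, beside 1.8% of all genes called lower. The median depot difference of the 24 genes, gonadal minus sc, was -0.40 in ad libitum dogs, with 20 negative, beside -0.02 over all genes, and it was -0.26 without dog 2. In control dogs it was 0.03, with 11 negative, and it turned to -0.27 with the actin covariate, -0.12 without dog 4 and -0.11 without the 4 arrays. The ad libitum sc arrays enter both the feeding comparison in sc fat and the depot comparison in ad libitum dogs, so these are not independent of each other.

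MVD was lower in gonadal fat in all 9 dogs, the 1 member with that pattern, beside 5.51% of all genes. Within dogs, gonadal minus sc, it differed by -0.42, -1.20, -0.20 and -1.22 in control dogs and by -1.23, -1.85, -1.26, -0.64 and -0.72 in ad libitum dogs. Signals in sc fat were 7.02, 6.76, 6.61 and 7.35 in control dogs and 8.24, 7.33, 7.37, 6.95 and 7.17 in ad libitum dogs. Gonadal signals were 6.60, 5.55, 6.40 and 6.13, and 7.01, 5.48, 6.11, 6.31 and 6.45. The depots overlapped across dogs only through dog 2, the highest in both depots of the ad libitum group. In control dogs the difference was -0.76 ± 0.32 (adjusted p = 0.194). Leaving out dog 5, 6, 7 or 8 ended the call in ad libitum dogs, with adjusted p of 0.0876, 0.0684, 0.0549 and 0.0664.

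EBP was lower in gonadal fat in 8 of 9 dogs. Signals in sc fat were 8.18, 7.94, 8.20 and 8.07 in control dogs and 8.70, 8.28, 8.16, 8.01 and 8.13 in ad libitum dogs. Gonadal signals were 7.46, 7.23, 7.46 and 7.00, and 7.67, 7.29, 8.44, 7.22 and 7.05. In control dogs all 4 gonadal arrays lay below all sc arrays, and in ad libitum dogs dog 6 alone went the other way. The shares of all genes with that separation, or lower in 8 of 9 dogs, were not determined. The difference was -0.81 ± 0.24 in control dogs (adjusted p = 0.0789) and -0.72 ± 0.22 in ad libitum dogs (adjusted p = 0.0555). Without the gonadal array of dog 6, the highest in mean signal of the ciliated markers (6.65), both passed, with adjusted p of 0.0156 and 0.0035. Without all 4 arrays with markers of other cells the differences were -0.84 (adjusted p = 0.0645) and -1.07 (adjusted p = 0.00512), so the control call was lost. Both of these fits were added after seeing the data. A second EBP probe set differed by -0.61 ± 0.33 and -1.07 ± 0.30 (adjusted p = 0.318 and 0.038).

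STARD4 showed the same 8 of 9 dogs. It read 7.18, 7.33, 7.26 and 7.25 in sc fat of control dogs and 6.14, 6.28, 5.87 and 6.77 in their gonadal fat, with no overlap. The ad libitum dogs had 6.45, 7.56, 6.73, 6.88 and 6.82 in sc fat and 6.06, 6.16, 7.18, 6.14 and 5.78 in gonadal fat, where dog 6 again stood apart. Here too the shares of all genes with these patterns were not determined. The differences were -0.99 ± 0.28 in control dogs (adjusted p = 0.0617) and -0.62 ± 0.25 in ad libitum dogs (adjusted p = 0.136). Without the gonadal array of dog 6 these had adjusted p of 0.0177 and 0.0204, but without all 4 arrays neither passed (-0.95, adjusted p = 0.131, and -0.86, adjusted p = 0.052). With the actin covariate the difference in control dogs was -0.42 (adjusted p = 0.5), and in ad libitum dogs it was -0.43 without dog 5. A second STARD4 probe set differed by -0.47 ± 0.38 in control dogs (adjusted p = 0.519) and by -0.60 ± 0.34 in ad libitum dogs (adjusted p = 0.298).

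FDPS read 8.29, 8.45, 7.89 and 8.33 in sc fat of control dogs and 9.33, 8.26, 8.58, 8.78 and 8.62 in ad libitum dogs. Its gonadal signals were 8.14, 7.55, 8.17 and 8.04, and 8.60, 7.88, 7.44, 7.93 and 8.03. All 5 ad libitum dogs had less in gonadal fat, and the difference was -0.73 ± 0.22 (adjusted p = 0.0536), beside -0.27 ± 0.25 in control dogs (adjusted p = 0.578). CYP51A1 was likewise lower in gonadal fat in all 5 ad libitum dogs, by -1.04 ± 0.33 (adjusted p = 0.064), and in 2 of 4 control dogs (0.08 ± 0.37). ACAT2 was lower in gonadal fat of all 5 ad libitum dogs too (-0.65 ± 0.41, adjusted p = 0.353). The share of all genes with this pattern was not determined. MSMO1 differed by -0.52 ± 0.20 in ad libitum dogs (adjusted p = 0.125), or -0.27 without dog 2.

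With the dog as a random block, which uses the pairing of depots, EBP and STARD4 passed in control dogs (adjusted p = 0.0403 and 0.0325). FDPS, EBP and CYP51A1 then passed beside MVD in ad libitum dogs (adjusted p = 0.0248, 0.028 and 0.0291). Calls over all 8650 genes, in either direction, rose as well. They went from 255 without a block to 531 in control dogs, and from 645 to 1048 in ad libitum dogs. With the dog as a fixed term FDPS and CYP51A1 passed (adjusted p = 0.035 and 0.0243), while EBP did not (adjusted p = 0.0518 in ad libitum and 0.0728 in control dogs), nor did STARD4 in control dogs (adjusted p = 0.0769). That fit called 332 genes in control and 762 in ad libitum dogs. At an unadjusted p under 0.05 and without a block, 4 members were lower in gonadal fat of control dogs (MVD, EBP, STARD4 and NPC1), beside 10.3% of all genes. In ad libitum dogs 7 were lower (MVD, FDPS, CYP51A1, MSMO1, EBP, SC5D and STARD4), beside 14.3%.

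**Figure D3:**
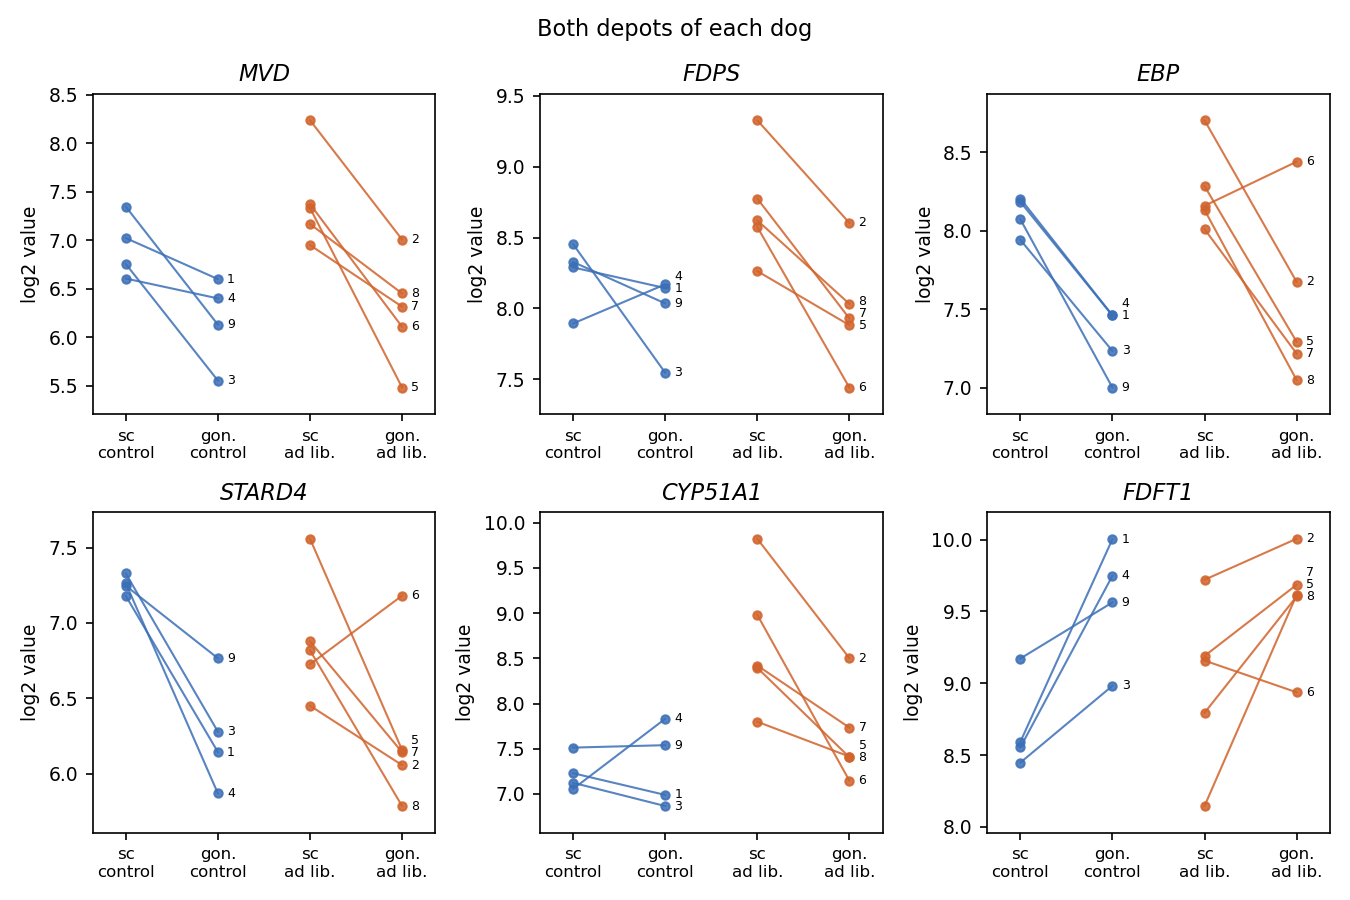
Log2 values of 6 genes in both depots, with a line joining the sc and the gonadal (gon.) array of each dog and the dog number beside it (blue, 4 control dogs; orange, 5 ad libitum dogs). All 9 MVD lines slope down, those of EBP and STARD4 do so in every dog but dog 6, and those of FDFT1 slope up in every dog but dog 6. Of these depot differences only that of MVD in ad libitum dogs passed the test.

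FDFT1 ran against these genes. It read 8.59, 8.45, 8.55 and 9.17 in sc fat of control dogs and 10.00, 8.98, 9.75 and 9.56 in their gonadal fat, higher in all 4. The difference was 0.88 ± 0.31 (adjusted p = 0.121). Ad libitum dogs had 9.72, 8.14, 9.16, 9.19 and 8.79 in sc fat and 10.01, 9.61, 8.94, 9.69 and 9.60 in gonadal fat, a difference of 0.57 ± 0.27 (adjusted p = 0.222), with dog 6 the exception. INSIG2 was higher in gonadal fat of all 4 control dogs, by 0.85 ± 0.37 (adjusted p = 0.207), with gonadal signals of 9.15, 8.56, 9.32 and 9.11. With the actin covariate these control differences were 0.47 for FDFT1 (adjusted p = 0.589) and 0.21 for INSIG2 (adjusted p = 0.865). HMGCS1 and NSDHL were also higher in gonadal fat of all 4 control dogs. The share of all genes with this pattern was not determined. In gonadal fat of ad libitum dogs INSIG2 read 9.45, 9.33, 7.60, 9.28 and 9.80, and its depot difference there was -0.00 ± 0.33. No member was higher in gonadal fat in all 9 dogs, a count of 0 beside 3.7% of all genes.

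NPC1 differed by -0.44 ± 0.20 log2 units, gonadal minus sc, in control dogs (adjusted p = 0.224) and by -0.17 ± 0.18 in ad libitum dogs (adjusted p = 0.614). Its sc signals were 8.54, 8.90, 8.13 and 8.31 in control dogs and 8.34, 8.79, 8.23, 8.52 and 8.36 in ad libitum dogs, so the sc arrays overlapped the gonadal ones in both groups. The control difference was -0.18 without dog 3 and -0.70 with the actin covariate. SQLE differed by -0.96 ± 0.50 and -0.38 ± 0.45, with dog 6 the 1 exception among 9 dogs, a pattern whose share of all genes was not determined. INSIG1 differed by 0.47 ± 0.74 and -1.05 ± 0.66, and HMGCS1 by 0.38 ± 0.39 and -0.41 ± 0.35. SCAP differed by -0.21 ± 0.20 and -0.36 ± 0.18, with gonadal signals of 8.22, 7.56, 8.12 and 8.05 in control dogs and 7.92, 7.92, 8.48, 7.68 and 7.73 in ad libitum dogs. For HSD17B7 the differences were 0.73 ± 0.38 and 0.64 ± 0.34, and for LBR 0.26 ± 0.22 and 0.42 ± 0.20, positive in both feeding groups.

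**Figure D4:**
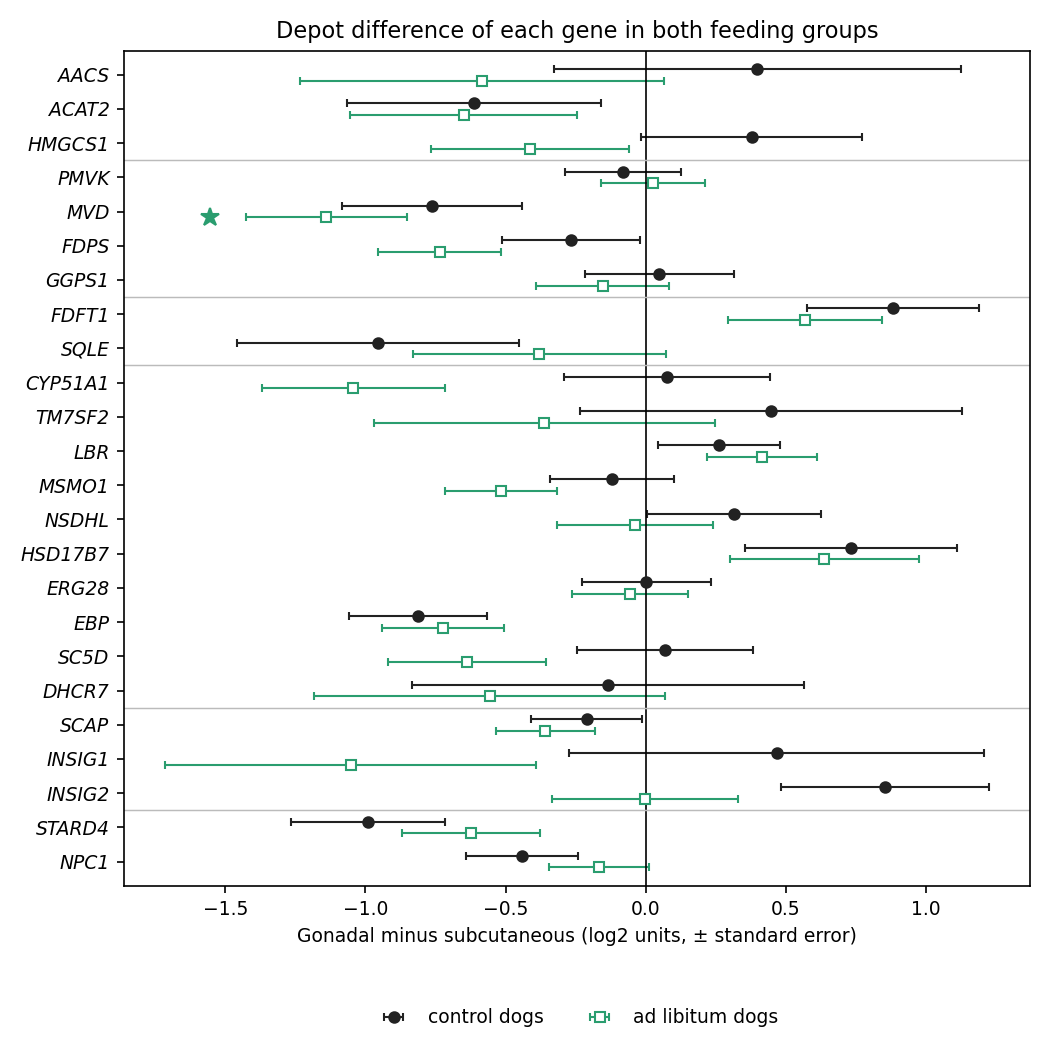
Gonadal minus sc difference (log2 units, ± standard error of limma's fit) of the 24 genes tested, in pathway order, in control dogs (black circles) and ad libitum dogs (green open squares). The star marks an adjusted p under 0.05, which MVD in ad libitum dogs alone carries. In ad libitum dogs 20 of 24 squares lie left of 0.

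Individual dogs differed as well. The sc array of dog 2 was the highest of the 9 sc arrays in 20 of the 24 genes, beside 21.8% of all genes tested. On average it stood 0.99 log2 units above each gene's mean over the 9 sc arrays. The gonadal array of dog 2 was the highest of 9 in 11 genes (13.6% of all genes), 0.51 units above the mean of the gonadal arrays. Dog 5, also fed ad libitum, stood 0.26 units below the mean in sc fat, within the control range of -0.44 to -0.10. Among control dogs the gonadal array of dog 3 was the lowest of 9 in 9 genes (17% of all genes). The sc arrays of dogs 3 and 4 were the lowest in 7 and 8 genes (15.9% and 16% of all genes). The gonadal array of dog 6 was the highest of 9 in 8 genes and the lowest in 7, beside 23.5% of all genes for each.

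**Figure D5:**
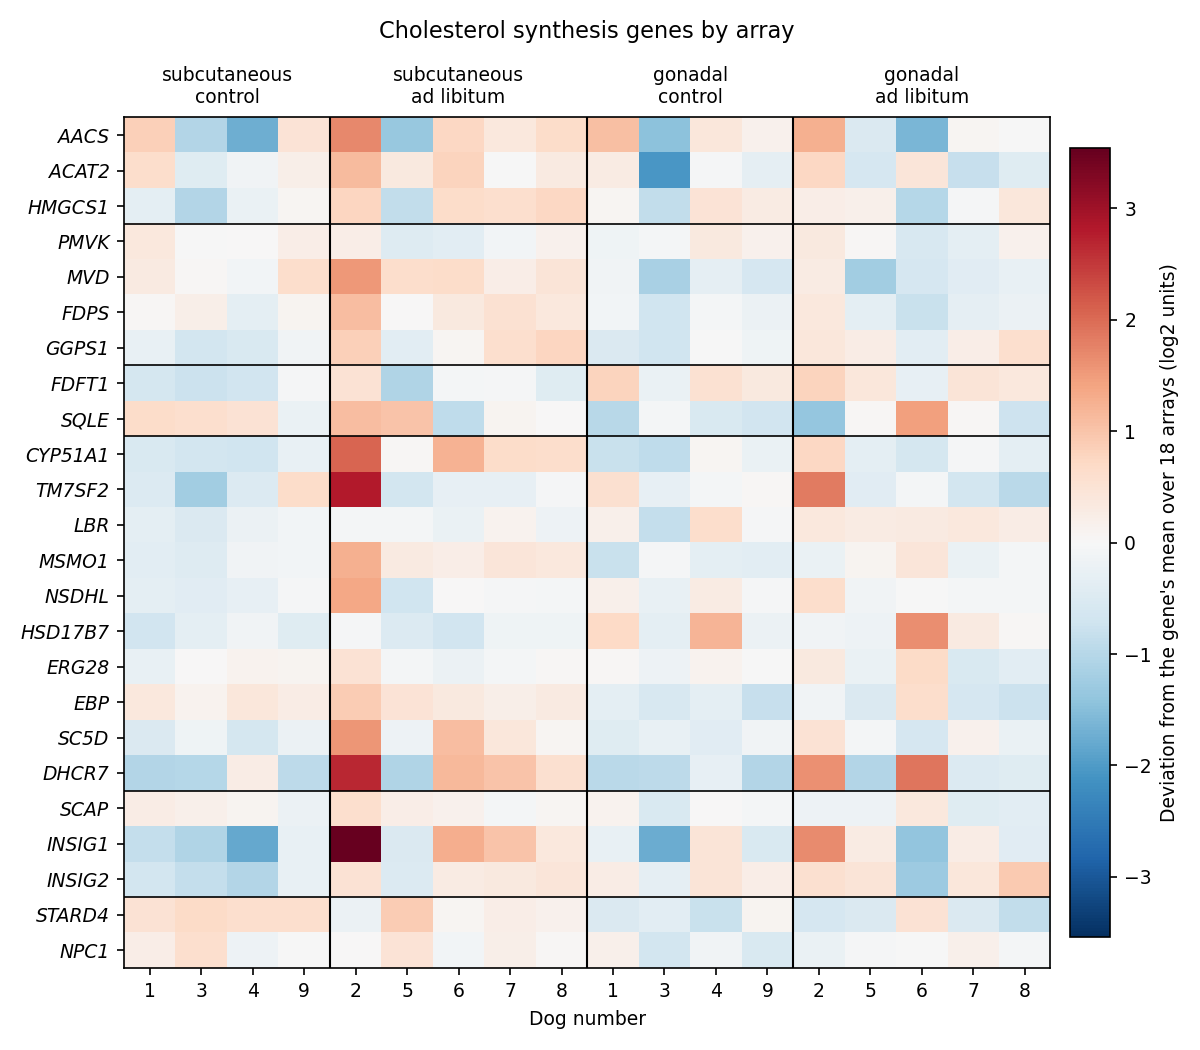
Deviation of each of the 24 genes tested from its own mean over 18 arrays (log2 units, red above and blue below), with genes in pathway order from top to bottom and arrays by depot, feeding group and dog number. Horizontal lines separate the sections of the pathway. The sc array of dog 2 is the reddest column, with INSIG1 at 3.54 above its mean.

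Adipocyte markers moved with the sc feeding difference. All 10 had a positive difference with a median of 0.72, where 50.1% of all genes were positive. Of the 10 markers 1, LEP, passed, beside 1.97% of all genes called higher. The mean of the adipocyte markers ran from 10.94 to 12.19 in sc control arrays and from 11.22 to 13.24 in sc ad libitum arrays, where dog 2 was highest and dog 5 lowest. The macrophage mean was highest in the sc array of dog 5, at 9.51. Skeletal muscle markers had a median sc feeding difference of -3.71, with high values in the 2 control arrays named above. The 3' minus 5' signal of the actin control probe sets, a measure of RNA length, averaged 4.75 ± 1.02 (SD, n = 4) in sc control and 3.49 ± 0.77 (SD, n = 5) in sc ad libitum arrays. With that signal as a covariate CYP51A1 differed by 1.22 (adjusted p = 0.24) and INSIG1 by 1.35 (adjusted p = 0.466). The part of adipocyte content in these differences was not tested.

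For depots, all 11 macrophage markers had a negative difference, gonadal minus sc, with a median of -0.89 in control and -0.84 in ad libitum dogs. Over all genes 51.5% and 48.4% of these differences were positive. Of the macrophage markers 0 and 1 were called, beside 1.8% and 4.75% of all genes called lower. The macrophage mean ranged from 7.40 to 9.51 in sc and from 6.41 to 7.81 in gonadal arrays. Adipocyte markers had median depot differences of 0.73 in control and 0.09 in ad libitum dogs. Of 3 mesothelial markers tested, from the lining of the abdominal cavity, UPK3B and WT1 had a positive and 1 a negative depot difference in both feeding groups. Both were called in ad libitum dogs (adjusted p = 0.00336 and 0.0147), and 0 were in control dogs (adjusted p = 0.113 and 0.0773). Of all 8650 genes 645 were called in ad libitum and 255 in control dogs, in either direction. The actin signal averaged 2.91 ± 0.91 (SD, n = 4) in gonadal control and 3.31 ± 0.91 (SD, n = 5) in gonadal ad libitum arrays, so in control dogs it differed between depots as well. The part of these cells in the depot differences of MVD, EBP and STARD4 was not tested.

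Other genes of the sterol and isoprenoid system gave a few calls. Of 10 tested genes that transport, cleave or degrade SREBPs and their partners 0 were called for feeding in sc fat, and 9 had a positive difference. The closest were the protease gene MBTPS2 (0.67 ± 0.20, adjusted p = 0.077) and the ubiquitin ligase gene RNF145 (0.97 ± 0.31, adjusted p = 0.09). Of 13 genes of the isoprenoid branch 1 rose in sc fat, beside the 1.97% of all genes, ZMPSTE24, a protease that processes prenylated proteins (0.82 ± 0.17, adjusted p = 0.0245). RABGGTB, a subunit of the enzyme that prenylates Rab proteins, differed by 0.48 ± 0.14 (adjusted p = 0.0792), and in ad libitum dogs it was lower in gonadal fat (-0.49 ± 0.13, adjusted p = 0.038).

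Of 11 tested genes for lysosomal release, transport and esterification of cholesterol 1 rose with feeding in sc fat, again beside 1.97%. This was NCEH1, a cholesteryl ester hydrolase (1.48 ± 0.25, adjusted p = 0.0167), and LIPA, the lysosomal lipase, differed by 1.11 ± 0.40 (adjusted p = 0.119). In ad libitum dogs 4 of the 11 were lower in gonadal fat, beside 4.75% of all genes, NCEH1 (-1.30 ± 0.24, adjusted p = 0.00443), NPC2 (-1.57 ± 0.32, adjusted p = 0.00836), TMEM97 (-1.32 ± 0.32, adjusted p = 0.021) and LIPA (-1.32 ± 0.37, adjusted p = 0.0436). NPC2, the partner of NPC1 in lysosomes, was also lower in control dogs (-1.85 ± 0.36, adjusted p = 0.0116), beside 1.8%. The 11 macrophage markers had negative depot differences too, as given above, and their part in these values was not tested. Of 8 genes for oxysterol sensing and efflux 0 were called for feeding in sc fat. The oxysterol receptor gene NR1H3 differed by 0.89 ± 0.46 (adjusted p = 0.25) and MYLIP, a ligase that degrades lipoprotein receptors, by -0.57 ± 0.31 (adjusted p = 0.277). Between depots 0 genes of this list and 0 of the 10 SREBP genes were called in either feeding group. The closest, gonadal minus sc, were PLTP (-2.10 ± 0.55, adjusted p = 0.0502) and ERLIN2 (0.74 ± 0.19, adjusted p = 0.0504) in control dogs. In ad libitum dogs they were CYP27A1 (0.84 ± 0.26, adjusted p = 0.0599) and ERLIN2 (0.51 ± 0.17, adjusted p = 0.0843).

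For 16 of the 24 genes more than 1 probe set was tested. All 3 CYP51A1 probe sets had a positive sc feeding difference (1.45, 1.73 and 0.73), with adjusted p of 0.0423, 0.0502 and 0.12. With the probe set at 0.73 the feeding groups overlapped in sc fat. SC5D gave 0.96 and 1.18. LBR gave 0.20 with its main probe set and 0.82 ± 0.34 with the other (adjusted p = 0.168), where the groups did not overlap, beside 6.13% of all genes. SQLE gave -0.12, 0.10 and 0.19, STARD4 -0.37 and 0.23, and NPC1 -0.02 and 0.09, so the sign of these small differences depended on the probe set.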

How the data were processed

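The authors computed the deposited values, read here as log2 signals, with GCRMA, as the submitters' processing notes say. They run from 0.68 to 16.51. The sources used here do not give the base of the logarithm or the version and settings of GCRMA. Of 43035 probe sets 111 were array controls, and 29254 of the other 42924 carry 1 gene symbol in the platform annotation. Probe sets at log2 4 or more in at least 4 of 18 arrays were tested (21484), and 47.2% to 49% of probe sets reached that floor in each array.

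Using limma 3.58.1 (with statmod 1.5.0, in R 4.3.3), 4 group means were fitted to all 18 arrays with no block (14 residual degrees of freedom, 2.54 added by moderation). All tests were two-sided, and p-values were adjusted by Benjamini-Hochberg within a comparison. Depots pair by the animal number. Deviations of a dog's arrays from their group means correlated at -0.05 to 0.53 across probe sets, over 0.1 in 6 of 9 dogs. The fit was tested on simulated data.

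All 29 members are accounted for. Array values, or ranges, are given for members called and for the 6 with the smallest p per comparison. They are also given for 9 regulators and rate-setting enzymes. Of the companion lists the 2 smallest p are given for feeding in sc fat. Between depots the genes called are given, with TMEM97 and LIPA added after their values were seen. For the SREBP and oxysterol lists, which gave no depot call, the closest genes were added in the same way. Gonadal feeding and interaction values of these lists are not given. The members and lists were chosen with earlier results of these data known. The alternatives were 2 other filters, 2 other scalings, trended and robust moderation, fewer arrays, the dog as a block, an actin covariate, averaged probe sets and each dog left out. A fit without 4 arrays and a fit without 1 array were added after seeing the data.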

Additional observations from a re-analysis of the deposited data

Results flagged for a closer look

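Values of the 24 genes were compared within each of the 4 groups by Dixon's criterion. In 11 of 96 sets of 4 or 5 arrays the highest or lowest array lay far from the rest. Chance gives about 5% for independent sets. These sets are not independent, because all 24 genes were read on the same arrays. The share of all genes flagged by this criterion was not determined, so no excess over chance is drawn from the 11. In sc fat of ad libitum dogs, dog 2 stood apart as the highest for TM7SF2 (9.87, next 7.03) and MSMO1 (9.76, next 8.93). Dog 5 stood apart as the lowest there for HMGCS1 (12.65, next 14.10) and INSIG2 (8.38, next 9.17). In gonadal fat of ad libitum dogs, dog 6 stood apart for HSD17B7 (6.39, highest), STARD4 (7.18, highest) and INSIG2 (7.60, lowest), and dog 2 for NSDHL (6.12, highest). Among control dogs, dog 4 was highest for DHCR7 in both depots (3.97 in sc and 3.40 in gonadal fat, both below the floor), and dog 9 was lowest for SQLE in sc fat (6.41). The gonadal array of dog 6 stood high in the mean of the ciliated markers, and the sc array of dog 4 in the means of the muscle and ciliated markers. The part of such cells in these values was not tested.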

How the results depend on the processing

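The number of members past the threshold changed with the processing, and the cause was not tested beyond the makeup of each alternative. For feeding in sc fat (1 member) it was 0 with no filter, with quantile normalization repeated, with only the arrays of the comparison, with the actin covariate and without the 4 arrays of other cells. It was 2 with arrays centred on their medians or probe sets averaged and 3 without the gonadal array of dog 6, and leaving out single dogs gave 0 to 7, with 7 without dog 5. Calls over all genes, in either direction, were 200 in the main fit, 185 with centring and 201 with averaging. They were 518 without the gonadal array of dog 6 and 1066 without dog 5. For depot in control dogs (0 members) the member count was 2 with only those arrays and with the dog as a random replicate block. It was 3 without the gonadal array of dog 6, and single dogs left out gave 0 to 2. Calls over all genes were 188 with only those arrays, 531 with that block and 484 without that gonadal array, beside 255 in the main fit. For depot in ad libitum dogs (1 member) the member count was 0 with no filter or only those arrays, and 2 with averaged probe sets or without the 4 arrays. It was 3 with the filter at log2 6, with centring, with the dog as a fixed block, with the actin covariate or without the gonadal array of dog 6. Calls over all genes in the fits with 3 members were, in that order, 617, 726, 762, 903 and 710, beside 645 in the main fit. With the random block 4 members and 1048 genes were called. Single dogs left out gave 0 to 3 members. Feeding in gonadal fat and the interaction stayed at 0 members under all 20 alternatives. CYP51A1 for feeding in sc fat ranged from 1.17 to 1.67 and passed in 7 of 20 alternatives (adjusted p 0.00996 to 0.24). MVD in ad libitum dogs ranged from -1.33 to -0.96 and passed in 15 of 21 (adjusted p 0.00994 to 0.0876). EBP for feeding in gonadal fat turned from 0.25 to -0.10 without the 4 arrays. The median depot difference of members in control dogs was -0.27 with the actin covariate. Over all probe sets feeding in sc fat gave 506 calls, 3 to 2703 with single dogs left out and 1 to 1315 otherwise, depot in control dogs 627 (143 to 1050, and 199 to 1346), and depot in ad libitum dogs 1545 (497 to 1620, and 984 to 2495). The 4 and 5 dogs a group limit the precision.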
